A study of Mus with 2 samples.

Results

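Expression of 41 genes that carry glucose into the cell and through glycolysis, lactate export, pyruvate entry and the pentose phosphate pathway was compared between BMDMs given GW4064 and BMDMs given DMSO under M2 conditions. The genes were taken from a fixed list of symbols, and a probe belonged to a gene when its transcript accession was assigned to that symbol in RefSeq. All 41 genes were found among the 20144 genes with a matched probe on the arrays. They were represented by 61 probes, of which 60 were well above background on both arrays, and each gene had at least 1 such probe.

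BMDMs are bone marrow derived macrophages. The marrow came from 10-week-old male C57BL6/J mice and was cultivated for 7 d with 10 ng/mL of M-CSF. IL-4, the cytokine used here to induce M2 macrophages, was then given at 10 ng/mL for 24 h, together with DMSO or with 10 µM GW4064. GW4064 is a synthetic agonist of FXR, a nuclear receptor for bile acids, and DMSO is its solvent, so that IL-4 and M-CSF were common to both groups. Each group consisted of 1 sample on 1 Agilent 1-colour array, which reads Cy3-labelled RNA as the brightness of each probe. With 1 array per condition there was no replicate error and no test, and every difference below describes these 2 arrays. Whether the cultures came from the same mouse is not given in the sources used here, and the free-text description of the GW4064 sample repeats that of the DMSO sample, while its title, source name and treatment label give GW4064.

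Glucose enters macrophages through transporters of the SLC2A (GLUT) family and is trapped by hexokinases. Upper glycolysis splits the sugar, lower glycolysis yields ATP and pyruvate, and pyruvate is either reduced to lactate and exported or oxidized by the pyruvate dehydrogenase complex in mitochondria. The pentose phosphate pathway branches off after the hexokinase step and supplies NADPH and ribose. Inflammatory macrophages are known for high glycolytic flux, and IL-4-treated macrophages for both glucose use and mitochondrial oxidation.

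The signal of a probe is its intensity after background subtraction within the array. These signals, as deposited for each array, were not scaled between the arrays, and the 75th percentile was 1209 for DMSO against 1265 for GW4064. Each log2 difference given here, always GW4064 minus DMSO, was taken after setting that percentile to 0 on both arrays, so that equal signals give a log2 difference of -0.066. Levels of different probes cannot be set against each other. Among the 234 probes that were printed 10 times and had all spots well above background, the median SD over the spots of a probe was 0.077 in log2 difference, called the spot SD below. Dim probes could spread more. The probes of Pck2 (signals of 70.8 and 76.7) and Slc2a4 (31.1 and 36.7), also printed 10 times, had SDs of 0.26 and 0.39. Different probes of 1 gene had a median SD of 0.080 over 3240 genes, and of 0.083 over the 11 of the 41 genes with 2 or more probes measured. These errors cover the spots and probes of the arrays and not the cultures.

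The probes for the spike-in control RNA had a median log2 difference of 0.17 over 251 spots, with a range of 0.032 to 0.24 over its 8 probes. When the arrays were centred on these spots (the spike-in scale), all differences were thus lower by 0.17 and the median of all genes measured was -0.17. Small increases changed sign on the spike-in scale, as is stated beside each group of genes. Spots with 2 or more other spots within 300 µm that differed 8-fold or more are said below to lie in a clustered area. They made up 16.5% of all spots, and of the 60 probes described here 6 (10.0%) lay in such an area, namely those of Pfkfb4, Pkm, Pdk4 and Tkt and 1 probe each of Hk1 and Ldha.

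The macrophage markers Adgre1, Csf1r, Itgam, Mertk, Lyz2, Cd14, Fcgr1, Msr1 and Spi1 were well above background on both arrays, with log2 differences between -0.25 and 0.19, and the accession of the array's probe for Cd68 was not matched. Of the stromal markers 14 were read on both arrays by every probe used. With GW4064 11 of them were lower, beside 48.8% of all genes read in this way, and Fn1, Pdgfra and Kitl were higher. The summed level of the stromal list was 55.8 with DMSO and 40.1 with GW4064, in units of the array's 75th percentile. Of 9 neutrophil markers, all read on both arrays, 7 were lower, beside the same 48.8%, and Cxcr2 and Mmp8 were higher. The summed levels of the neutrophil list were 11.9 and 7.53. The erythroid and lymphocyte markers were dim, with summed levels of 0.120 and 0.0475 and of 0.385 and 0.222. A probe well above background on 1 array alone was used for 4 of 5 erythroid and 2 of 3 lymphocyte markers measured. Such probes passed the filter through the array where they were high, and in the summed levels they counted as 0 on the other array. Neither the counts nor the summed levels of the erythroid and lymphocyte markers therefore give a direction. Markers such as Alas2, Slc4a1, Cd3d, Cd79a, Cd8a and Ncr1 were not well above background with either treatment. Of the macrophage markers 6 were higher and 3 lower, beside 51.2% and 48.8% of all genes read on both arrays. The median log2 difference of these markers was 0.058, and their summed level was 291 with DMSO and 268 with GW4064. Bright probes weigh most in such a sum, here 1 of Csf1r with signals of 169338 and 161892. The part of these cells in the differences below was not tested, and in RNA from a whole culture fewer cells of a type and less RNA per cell cannot be told apart.

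Of the 41 genes 28 were higher and 13 lower on the GW4064 array. Among the 13532 genes measured 51.6% were higher and 48.2% lower, and among the 12399 of them without a probe read on 1 array alone, as were the 41, 51.2% and 48.8%. The median log2 difference of the 41 genes was 0.069, against 0.0068 for all genes measured. On the spike-in scale 10 of the 41 were higher, beside 2648 of the 13532 genes measured (19.6%) and 2108 of the 12399. This 19.6% also stands beside each count by step on that scale below. The median of the 41 genes on that scale was -0.10, which was 0.061 above the median of all genes. Over the 12 alternative settings, the median of the 41 genes lay between 0.023 and 0.13 above that of all genes.

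Large differences were few. A 2-fold difference was reached by 0 of the 41 genes, where 2.04% of all genes and 0.815% of those measured on both arrays were higher, and 2.71% and 1.29% were lower. At 1.5-fold 2 of the 41 (4.88%) were higher, Slc2a6 and Pfkl, beside 4.39% of all genes and 2.32% of those measured on both arrays. At this threshold 0 were lower, beside 5.56% and 3.38%. On the spike-in scale 1 was higher, Slc2a6 (0.68), and 2 were lower, Pfkp (-0.62) and Pdk4 (-0.75), while Pfkl (0.58) no longer passed. The shares of all genes at 1.5-fold on that scale are not given here. At 1.2-fold 6 were higher (14.6%, beside 12.5% and 9.69%), namely Slc2a1, Slc2a6, Hk2, Pfkl, Aldoc and Slc16a3. The 3 genes 1.2-fold or more lower (7.32%, beside 12.8% and 10.5%) were Pfkp, Pdk4 and Pdp1.

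**Figure D1:**
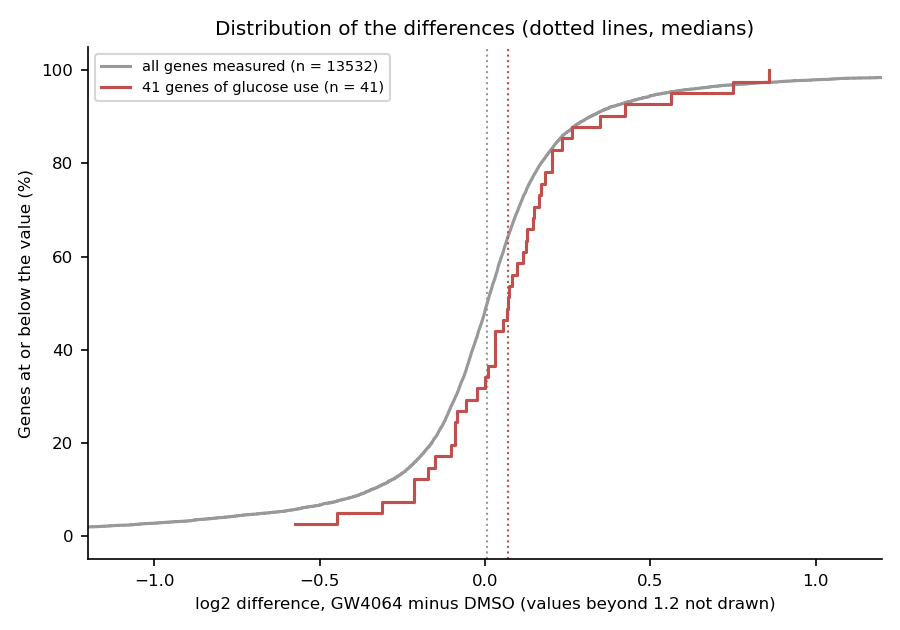
The curves give the percentage of genes (vertical axis) at or below each log2 difference, GW4064 minus DMSO (horizontal axis), for the 41 genes of glucose use and for the 13532 genes measured, with medians as dotted lines at 0.069 and 0.0068. The curve of the 41 genes lies to the right of the other around 0 and meets it at the upper end. On the spike-in scale both curves move left by 0.17.

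**Figure D2:**
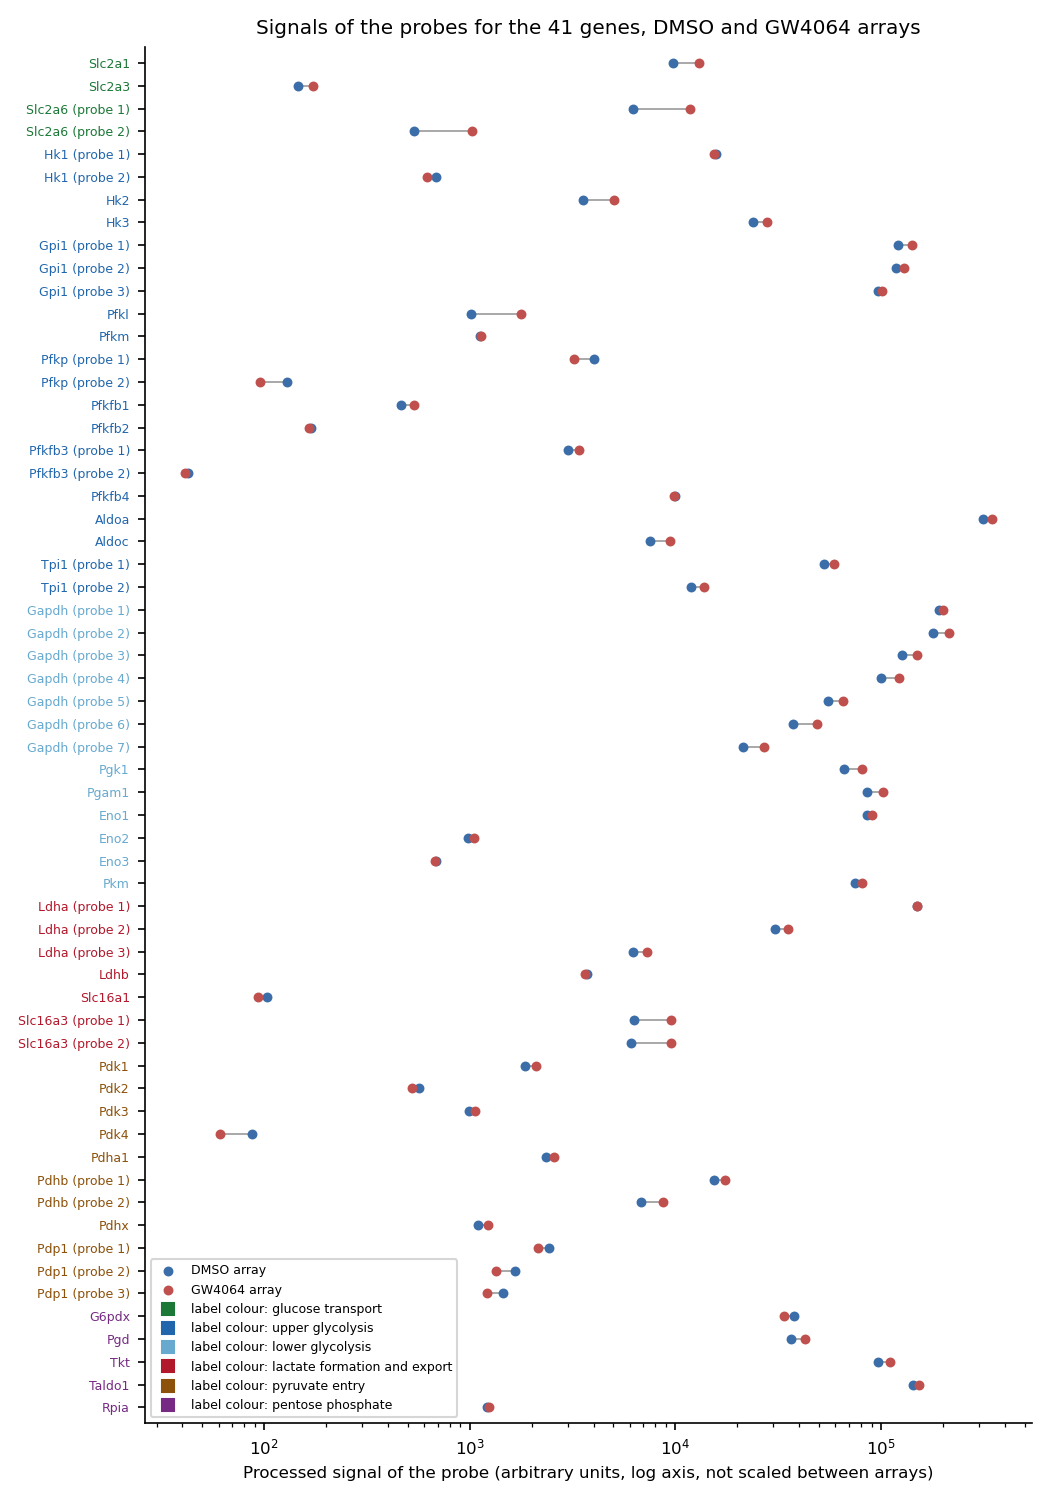
Each row is 1 of the 60 probes measured, with its processed signal given DMSO (blue) and given GW4064 (red) on a log axis in arbitrary units, unscaled between the arrays. The widest gaps are those of Slc2a6 and Pfkl, with the higher signal on the GW4064 array, and signals run from 41.2 (Pfkfb3, probe 2) to 345460 (Aldoa).

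All 3 glucose transporters among the 41 genes were higher on the GW4064 array, and Slc2a3 was no longer so (-0.0037) on the spike-in scale. Of the SLC2A genes measured outside the 41, Slc2a8 (-0.11, signals of 6477 and 6265) and Slc2a13 (-0.20) were lower. Slc2a4 (0.43) and Slc2a9 (0.31) were higher. Slc2a4 had signals of 31.1 and 36.7 and an SD of 0.39 over its 10 spots, close to its difference. Slc2a7 was read on the GW4064 array alone, and so passed the filter through the array where it was high. Slc2a6 encodes GLUT6, a transporter of intracellular membranes in macrophages. Its probes had signals of 6247 and 538 with DMSO and of 11818 and 1022 with GW4064. Although their signals were far apart, both gave almost the same log2 difference, 0.85 and 0.86, and the mean of 0.86 (SD over probes 0.0041, 1.81-fold) was the largest of the 41 genes and ranked 352 from the top of 13532 genes. Slc2a1 encodes GLUT1, the main glucose transporter of the macrophage plasma membrane. Its signal was 9761 with DMSO and 13002 with GW4064, a log2 difference of 0.35 or 1.27-fold, and 0.17 on the spike-in scale. Slc2a3 encodes GLUT3, a high-affinity transporter. Its signal was low, 147 and 173, and the log2 difference of 0.17 was close to that of its surroundings on the slide, where other spots within 500 µm had a median of 0.16. With this local median subtracted the log2 difference of Slc2a3 was 0.0089, while Slc2a1 (0.24) and Slc2a6 (0.81) were still above 2 times the spot SD.

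In upper glycolysis 9 of 14 genes were higher, with a median log2 difference of 0.071, and on the spike-in scale 3 were higher, namely Hk2, Pfkl and Aldoc. The hexokinases phosphorylate glucose on entry. Hk2, the inducible form, had signals of 3568 and 5011, a log2 difference of 0.42 or 1.34-fold, and 0.25 on the spike-in scale. Hk3, a form found in myeloid cells, had signals of 23824 and 27927 and a log2 difference of 0.16, which became -0.010 on that scale. Hk1, the housekeeping form, was lower on both of its probes, with signals of 15832 and 683 with DMSO and 15438 and 622 with GW4064, and log2 differences of -0.10 and -0.20. The probe of Hk1 at -0.10 lay in a clustered area. Within the family, Hk2 exceeded Hk1 by 0.58 in log2 difference, between 0.53 and 0.65 in the 12 alternatives.

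Phosphofructokinase, which catalyses the committing step of glycolysis, has 3 subunit genes, which were higher, near 0 and lower. Pfkl, the liver-type subunit, had signals of 1010 with DMSO and 1779 with GW4064, a log2 difference of 0.75 or 1.68-fold (0.58 on the spike-in scale), read at 1 spot outside clustered areas. Pfkm, the muscle-type subunit, was printed at 10 spots. With DMSO its signals ran from 1067 to 1234 with a median of 1116, and with GW4064 from 1106 to 1211 with a median of 1132. The log2 difference of Pfkm was -0.059 with an SD of 0.063 over the 10 spots, a difference below the spread of its own spots, and 9 of the 10 were lower. Pfkp, the platelet-type subunit, was lower on both probes, from 4011 to 3223 (-0.38) and from 130 to 95.0 (-0.51), a mean of -0.45 (SD over probes 0.094) or 1.36-fold lower. Pfkl therefore exceeded Pfkp by 1.198 in log2 difference. Over both pairs of probes this was 1.13 and 1.26, and over the 12 alternatives it lay between 1.05 and 1.22. Such a comparison of genes within the arrays does not depend on the spike-in or percentile scaling.

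The Pfkfb genes encode the bifunctional enzymes that make and break fructose 2,6-bisphosphate, the activator of phosphofructokinase. None of the 4 differed by 1.2-fold or more. Pfkfb1 had signals of 464 and 536 and a log2 difference of 0.14, which was -0.030 on the spike-in scale. Pfkfb2 had 168 and 165 (-0.090). The probes of Pfkfb3, the isoform most associated with activated macrophages, disagreed in sign. The brighter one, designed on NM_001177753, had signals of 3006 and 3407 and a log2 difference of 0.11, and the dimmer one, designed on NM_133232, had 42.6 and 41.2 and a log2 difference of -0.11, so that their mean was 0.00031. Pfkfb4 was read by 1 probe in a clustered area, with 10014 and 9890 (-0.084), while its dimmer probe was not well above background with either treatment.

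The remaining enzymes of upper glycolysis had strong signals and small differences. Gpi1, glucose-6-phosphate isomerase, was measured by 3 probes with signals between 96895 and 120821 with DMSO and between 100996 and 141049 with GW4064. Their log2 differences were 0.16, 0.056 and -0.0059, a mean of 0.069 that was below their SD of 0.083. Aldoa, the main aldolase, had signals of 313749 and 345460 and a log2 difference of 0.073. Aldoc, the brain-type aldolase, had 7525 and 9452 and a log2 difference of 0.26. Tpi1, triose-phosphate isomerase, had signals of 53058 and 11949 with DMSO and of 59317 and 13725 with GW4064, and log2 differences of 0.095 and 0.13. Gpi1, Aldoa and Tpi1 were lower on the spike-in scale, with -0.10, -0.10 and -0.059, and Aldoc remained higher (0.090).

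In lower glycolysis 6 of 7 genes were higher, with a median log2 difference of 0.055 and a range of -0.090 to 0.23, and on the spike-in scale 3 remained higher, Gapdh, Pgk1 and Pgam1. Gapdh, which oxidizes glyceraldehyde 3-phosphate, was measured by 7 probes with signals from 21214 to 190540 given DMSO and from 26854 to 215113 given GW4064. All 7 had a log2 difference above 0, from 0.0074 to 0.33, with a mean of 0.20 (SD over probes 0.10). The lowest value was that of the probe with the strongest signal on the DMSO array. Pgk1, phosphoglycerate kinase, had signals of 65816 and 80884 (0.23), and Pgam1, phosphoglycerate mutase, had 85717 and 101793 (0.18). These 3 genes encode consecutive enzymes, and on the spike-in scale their log2 differences were 0.028, 0.058 and 0.0086, all below the spot SD.

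The last steps of glycolysis differed little. Eno1, the ubiquitous enolase, had signals of 85614 and 90144 and a log2 difference of 0.0087. Eno2, the neuronal form, had 984 and 1052 (0.031), and Eno3, the muscle form, had 687 and 675 (-0.090). Pkm, pyruvate kinase, had 74556 and 81072 (0.055), on a probe in a clustered area. None of the 4 reached 2 times the spot SD, and Eno1, Eno2 and Pkm were lower on the spike-in scale. Gapdh, Aldoa, Eno1, Ldha, Tpi1 and Pgam1 belong to gene families with near-identical processed copies in the mouse genome, and a probe could not be assigned to 1 copy here.

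**Figure D3:**
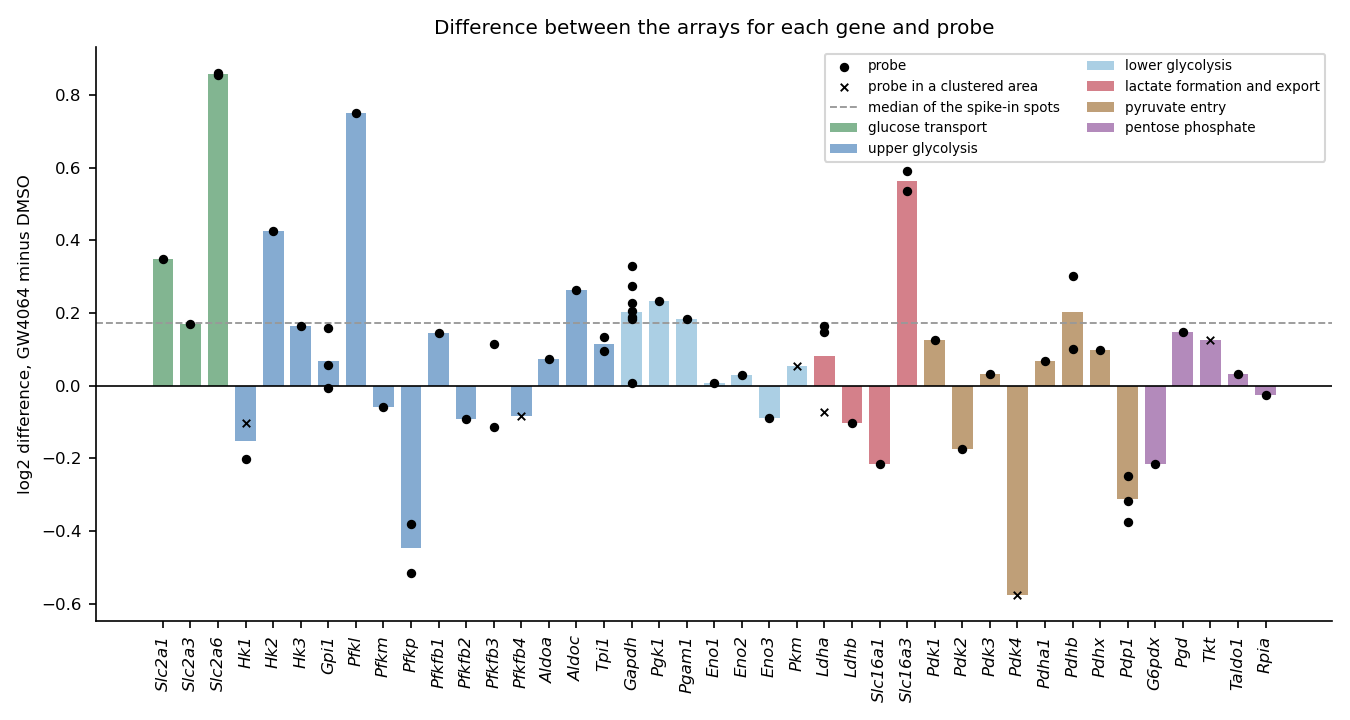
Bars give the log2 difference (GW4064 minus DMSO, vertical axis) of each of the 41 genes, coloured by step of the pathway, as the mean over its probes, and black marks give the single probes, with crosses for those in clustered areas. The dashed line at 0.17 is the median of the spike-in spots, above which a gene was higher on the spike-in scale; 10 bars reach above it, with Slc2a6, Pfkl and Slc16a3 the highest, and Pdk4 and Pfkp the lowest below 0.

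Among genes of lactate formation and export 2 of 4 were higher, Slc16a3 and Ldha, of which Slc16a3 remained so on the spike-in scale and Ldha did not (-0.093). Slc16a3 encodes MCT4, the low-affinity transporter that exports lactate from glycolytic cells. Its probes had signals of 6308 and 6076 with DMSO and 9575 and 9573 with GW4064, and log2 differences of 0.54 and 0.59. The mean of 0.56 (SD over probes 0.038), or 1.48-fold, was the third largest of the 41 genes and was 0.39 on the spike-in scale. Slc16a1 encodes MCT1, which carries lactate both ways, and had low signals of 103 and 93.2 and a log2 difference of -0.21. Slc16a3 thus exceeded Slc16a1 by 0.78, between 0.69 and 0.78 over the alternatives.

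Ldha and Ldhb encode the subunits of lactate dehydrogenase. The 3 probes of Ldha had signals of 150150, 30445 and 6198 with DMSO and 149526, 35303 and 7274 with GW4064. The log2 differences were -0.072 for the brightest one, in a clustered area, and 0.15 and 0.17 for the others, so that the mean of 0.080 was below the SD over probes of 0.13. Ldhb had signals of 3728 and 3635 (-0.10). Its surroundings on the slide had a median of 0.15, and with this subtracted the log2 difference of Ldhb was -0.26. The excess of Ldha over Ldhb, 0.18, ranged from 0.030 with the brightest probe of each gene to 0.34 with the local median subtracted.

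Of the 8 genes of pyruvate entry 5 were higher, with a median log2 difference of 0.049, and on the spike-in scale 1 was, Pdhb. The Pdk genes encode kinases that switch off the pyruvate dehydrogenase complex, and Pdp1 encodes a phosphatase that switches it on again. Pdk4, a kinase raised by fasting and fatty acids, had low signals of 87.2 with DMSO and 61.2 with GW4064. Its log2 difference of -0.58, or 1.49-fold lower, was the lowest of the 41 genes, and it was read at 1 spot in a clustered area. Pdk2 had signals of 567 and 527 (-0.17). Pdk1, a kinase known as a hypoxia target, had 1850 and 2111 (0.12), and Pdk3 had 994 and 1063 (0.031). Pdp1 was lower on each of 3 probes, with signals of 2426, 1665 and 1446 with DMSO and 2139, 1344 and 1215 with GW4064. The log2 differences of Pdp1 were -0.25, -0.37 and -0.32, a mean of -0.31 (SD over probes 0.063) or 1.24-fold lower. Pdk1 exceeded Pdp1 by 0.44, between 0.37 and 0.49 over the alternatives. It exceeded Pdk4 by 0.70, or by 0.56 to 0.70 over the 11 alternatives that measured Pdk4.

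Pdha1, Pdhb and Pdhx, the subunits of the pyruvate dehydrogenase complex among the 41 genes, were all slightly higher. Of the other subunits of the complex, Dlat was at 0.045 and Dld was lower, at -0.079 on both probes. On the spike-in scale Pdha1 and Pdhx were lower and Pdhb was at 0.028. Pdha1, the catalytic alpha subunit, had signals of 2341 and 2567 (0.067). Pdhb, the beta subunit, had signals of 15444 and 6785 with DMSO and of 17348 and 8748 with GW4064. The log2 differences of Pdhb were 0.10 and 0.30, a mean of 0.20 (SD over probes 0.14). Pdhx, which binds the dihydrolipoamide dehydrogenase subunit, had 1093 and 1224 (0.097). Pdk1 and Pdk3 were lower as well on the spike-in scale, with -0.049 and -0.14.

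Of the 5 pentose phosphate genes 3 were higher, with a median log2 difference of 0.031 and a range of -0.22 to 0.15, and on the spike-in scale 0 were higher. G6pdx, glucose-6-phosphate dehydrogenase, which sets the rate of the pathway, was lower, with signals of 37560 and 33860 and a log2 difference of -0.22 or 1.16-fold lower. Pgd, the other NADPH-forming dehydrogenase, had 36719 and 42602 (0.15), so that Pgd exceeded G6pdx by 0.36, between 0.29 and 0.36 over the alternatives. In the non-oxidative branch Tkt, transketolase, had signals of 96596 and 110309 (0.13), on a probe with 7 other 8-fold spots within 300 µm. Taldo1, transaldolase, had 143891 and 153860 (0.031), and -0.13 with the local median of 0.16 subtracted. Rpia, ribose-5-phosphate isomerase, had 1212 and 1247 (-0.026).

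**Figure D4:**
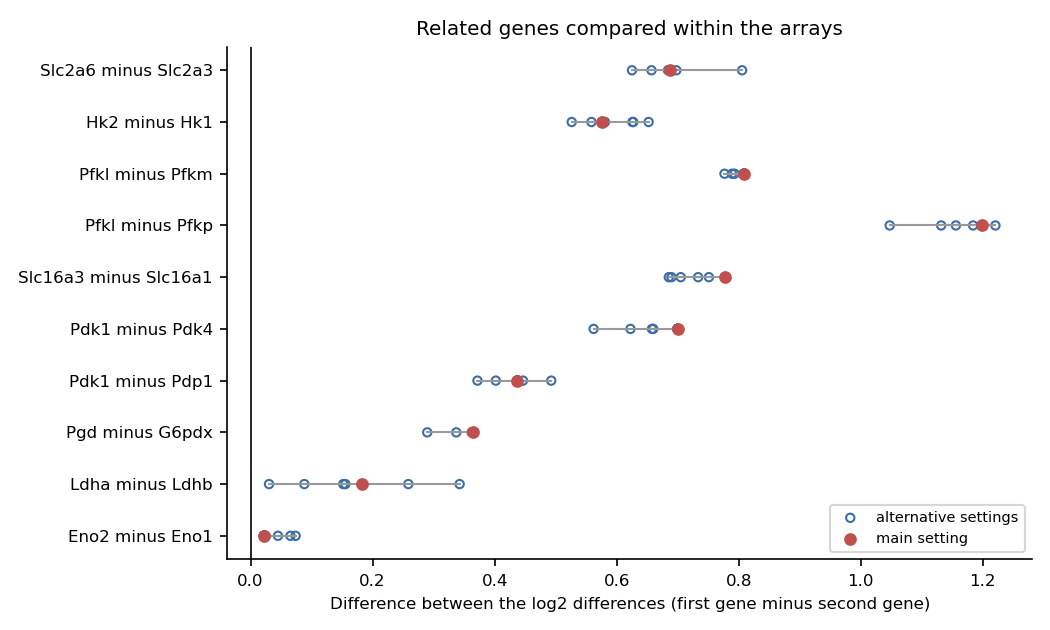
Each row compares a pair of related genes by the difference between their log2 differences (horizontal axis), under the main setting (red) and the 11 or 12 alternative settings that measured both genes (open blue circles, joined by a line from lowest to highest). All points lie above 0; Pfkl minus Pfkp is the largest (1.198), and Eno2 minus Eno1 is near 0 (0.022).

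The pairs compared within the arrays were chosen with their values known, and the comparisons are descriptions. A difference of more than 2 times the spot SD was seen for 18 of the 41 genes, 12 higher and 6 lower. This was the case for 21.9% of all genes in the upward and 20.9% in the downward direction. The 12 higher genes were the 3 glucose transporters, Hk2, Hk3, Pfkl, Aldoc, Gapdh, Pgk1, Pgam1, Slc16a3 and Pdhb. The 6 lower genes were Pfkp, Slc16a1, Pdk2, Pdk4, Pdp1 and G6pdx. The spot SD came from probes with all spots well above background and may be too small for dim probes such as those of Slc2a3, Slc16a1 and Pdk4. With the local median subtracted Slc2a3 (0.0089), Hk3 (0.10), Pdhb (0.11), Gapdh (0.15) and Slc16a1 (-0.14) no longer passed 2 times the spot SD. Ldhb, Tpi1, Pdk1 and Pfkfb4 then did. The direction was the same under each of the 12 alternatives, or the 11 that gave a value, for 23 genes. Of these 10 were higher (Slc2a1, Slc2a6, Hk2, Pfkl, Aldoc, Gapdh, Pgk1, Pgam1, Slc16a3 and Pdhb) and 13 lower. The spike-in centring lowers every difference, so it could change the direction of higher genes only. Apart from this setting 32 genes kept their direction, 19 higher and 13 lower. The share of all genes that kept their direction is not given here, so neither count sets the 41 genes apart from other genes.

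The other genes of the pathway were a list of 58 transporters, isozymes, gluconeogenic enzymes and subunits outside the 41. Of the 34 measured 20 were higher and 14 lower, with a median log2 difference of 0.046. Among the 20, Slc2a7, Pdha2 and Pdp2 had a probe that passed the filter through the GW4064 array alone. Of the 31 read on both arrays by every probe used 17 were higher and 14 lower, beside 51.2% and 48.8% of all such genes. The median of the list was 0.011 over the 32 genes left when only probes well above background on both arrays were used, -0.023 over 57 genes without a filter on dim probes, and -0.13 on the spike-in scale. At 1.5-fold 2 of the 34 (5.88%) were higher and 0 lower, beside 4.39% and 5.56% of all genes measured. These 2 genes were well above background on the GW4064 array alone and each read at 1 spot. Slc2a7, an intestinal hexose transporter, had signals of 3.68 and 116 and was at least 7.01-fold higher, at a spot in a clustered area. Pdha2, the testis form of the catalytic subunit, had 14.4 and 45.1 and was at least 2.74-fold higher. Of this list 23 genes were not well above background with either treatment, among them Pklr, Fbp1, Pck1, G6pc, Slc2a2 and Slc2a5, which serve glucose and fructose handling in liver, kidney and gut. Slc2a12 had no matched probe and was not analysed here.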

How the data were processed

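Total RNA of BMDMs treated with DMSO or GW4064 was labelled with Cy3 and hybridised to whole-genome Agilent mouse arrays, 1 per condition, on 1 slide. The authors deposited the intensity of each spot from Agilent Feature Extraction 10.7.1.1, background-subtracted and detrended within the array, and a log2 table of both arrays whose differences equalled those computed here apart from a constant of 0.0022. Its columns had medians of 0.035 (DMSO) and -0.051 (GW4064), and the baseline on which its probes were centred stays unknown.

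Processed signals were log2-transformed and the array's 75th percentile over non-control spots was subtracted. Spots marked as non-uniform (215 with DMSO and 30 with GW4064) or as outliers among copies were left out, and 0 were saturated. Spots of 1 probe were averaged, and probes of 1 gene likewise, if the software marked them as well above background on either array. Where 1 array alone was, the other was set to the higher of its value and the lowest signal well above background (15.7 with DMSO, 15.1 with GW4064), giving "at least N-fold". RefSeq transcripts of GRCm38.p6 named 26581 of 39429 probes. The array was designed on another build, so no coordinates are given, and no sequences were used. No test was possible with 1 array per condition. All 41 members are named, and other pathway genes from 1.5-fold or where a statement on the members or on the spread turns on them. Members and lists were chosen with earlier results of these data known. The calculation was tested on simulated data with the same noise for every probe. The planted changes were larger than any difference among the 41 genes, so the test does not cover differences of the size seen here. Software comprised R 4.3.3 with limma 3.58.1 and Python 3.11.15 with numpy 2.4.6, scipy 1.17.1, pandas 2.3.3 and matplotlib 3.10.9.

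Alternatives were quantile normalization, other centrings, a loess on the level (span 0.3), normexp (offset 50) on the median intensity, the deposited table, other filters, marked spots kept, the brightest probe, and spots in clustered areas (2 or more others differing 8-fold within 300 µm) left out. Subtracting the median of spots within 500 µm and the 1.2-fold threshold were added after the data were seen.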

Additional observations from a re-analysis of the deposited data

How the results depend on the processing

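No paired analysis was possible because neither group has a second array. Naming probes by a gene name in the array files was planned and not run, since the files used here hold accessions and no gene names. The planned search of promoters for motifs was not run here. The numbers of genes 1.5-fold or more higher (2) and higher at all (28), and the medians, stayed within 1.5 times the main count or within the spot SD under 11 of 12 alternatives. On the spike-in scale the median of the 41 genes was -0.10, and 10 were higher, beside 19.6% of all genes. The 1.5-fold threshold was passed there by 1 higher (Slc2a6) and 2 lower genes (Pfkp and Pdk4). The median of the other pathway genes was -0.13, since each difference is lower by 0.17 on this scale. With the median of probes measured on both arrays set to 0, 1 gene was 1.5-fold or more lower, against 0, as Pdk4 moved from -0.58 to -0.59. The number of genes 2-fold or more higher or lower was 0 under each alternative. Leaving out clustered areas left 37 of the 41 genes. Pdk4 had its smallest difference, -0.43, under the normexp correction. The precision is limited by the number of arrays, 1 per condition.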
